A study of Mus musculus with 4 samples.

Results

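The 10 genes described here are the cyclins, kinases and inhibitors that act in the G1 phase of the cell cycle: the D-type cyclins Ccnd1, Ccnd2 and Ccnd3, the E-type cyclins Ccne1 and Ccne2, the kinases Cdk2, Cdk4 and Cdk6, and the inhibitors Cdkn1b and Cdkn2c. They were chosen by gene symbol, and all 10 were found among the 23185 probe sets with a gene symbol, 1 probe set per gene. All 10 also lay above the level needed for testing, a mean log2 value of 3.84 over the arrays, which left 13911 genes. The data are 4 Affymetrix arrays of RNA from E14.5 mouse fetal liver erythroblasts, the nucleated precursors of red cells, which were isolated on magnetic beads against the erythroid surface marker Ter119. The groups were the RNA that came down with an antibody against Cpeb4, a protein that binds mRNA (immunoprecipitate, IP, 2 biological replicates), the RNA that came down with rabbit IgG (1 array) and total input RNA (1 array). No genotype, strain or drug treatment is named for any group. How many livers were pooled, and whether a control array shared its cells with an IP replicate, is not given in the sources used here. The question is which mRNAs came down with Cpeb4 beyond both controls.

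In G1, D-type cyclins bind and activate Cdk4 or Cdk6, which phosphorylate the retinoblastoma family of pocket proteins and so free E2F transcription factors. E2F factors switch on the E-type cyclins, which activate Cdk2 and carry the cell into S phase. Cip/Kip inhibitors such as Cdkn1b act mainly on cyclin-Cdk2 complexes, and Ink4 inhibitors such as Cdkn2c bind Cdk4 and Cdk6. In erythroblasts this machinery drives the last few divisions before the cells leave the cell cycle, and Ccnd3 is known to set the number of those divisions. Cpeb4 belongs to a protein family that binds short uridine-rich elements in mRNA and regulates translation.

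Among these genes, Cdk6 was about 4-fold above both controls in the IP, Ccnd2 and Cdk4 were over 2-fold above IgG and within 2-fold of input, and Cdkn2c was over 2-fold below input. Values are given on the deposited log2 scale, and a difference is the IP value less the control value, so that 1 is 2-fold. The SE beside a difference comes from the spread of the 2 IP arrays pooled over genes of like level, since each control is a single array. Adjusted p-values are from limma, with Benjamini-Hochberg adjustment over the 13911 genes, and "rose" and "fell" are used at an adjusted p below 0.05. By size, a gene was counted when it was at least 2-fold from a control in both IP replicates. Values of different genes come from different probes, so levels are compared between arrays within a gene and not between genes.

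**Figure D1:**
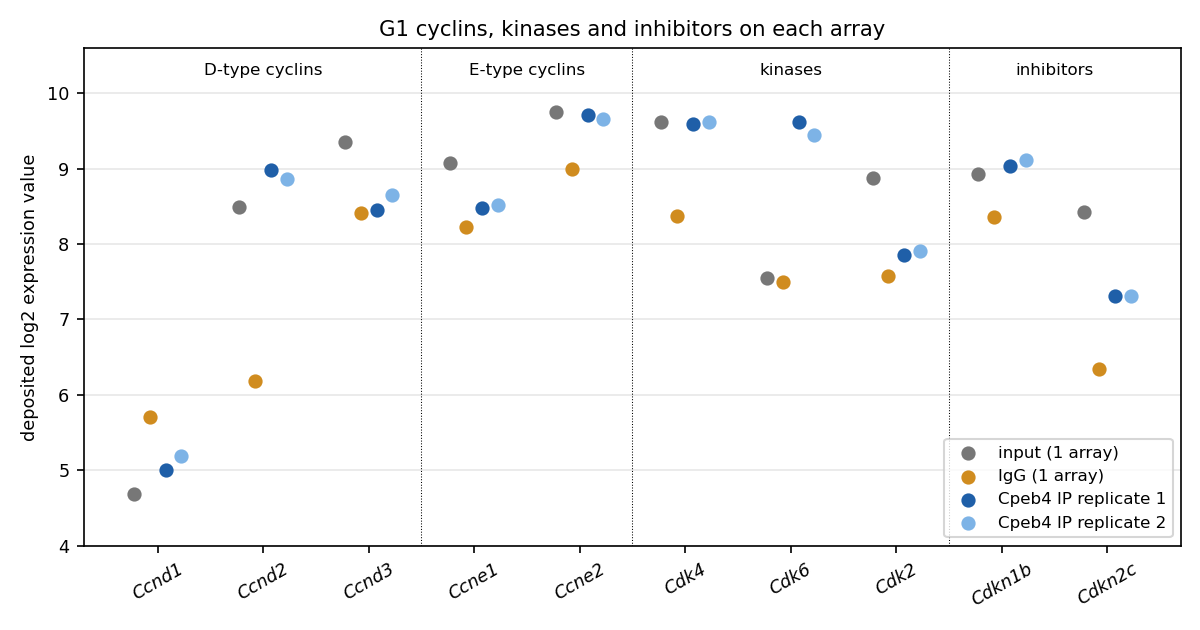
Deposited log2 expression values (vertical axis) of the 10 genes on the 4 arrays: input in grey, IgG in orange and the Cpeb4 IP replicates in dark and light blue. Arrays can be compared within a gene but not between genes; for Cdk6 both IP points (9.62 and 9.45) lie above both controls (7.55 and 7.49), and for Ccnd1 the IgG point is the highest.

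The arrays differed in spread. The IgG array was narrower over all probe sets, with an SD of 1.74, while that of input was 2.13 and those of the IP were 2.05 and 2.07, and well-expressed genes tended to read low on it. Of 8 erythroid markers on the array, all had values between 8.22 and 12.20 on every array, and in both IP replicates none exceeded either control 2-fold. In the IP all 8 were lower than in input, with a median difference of -0.51, and 3 were at least 2-fold lower in both replicates (Klf1 at -1.71, Gata1 at -1.40 and Epb42 at -1.23), as were 5.18% of all tested genes. Most markers of other cell types were higher in the IP mean than in input. These were 5 of 5 megakaryocyte, 6 of 7 neutrophil and myeloid, 6 of 7 tested macrophage, 5 of 5 hepatocyte and 6 of 6 progenitor markers. Higher than IgG were 5, 5, 4, 5 and 5 of them. At least 2-fold above input in both replicates were 4 of 5 megakaryocyte, 5 of 7 neutrophil and myeloid, 3 of 8 macrophage, 3 of 5 hepatocyte and 3 of 6 progenitor markers, where 4.04% of all tested genes were. At least 2-fold above both controls were 2, 2, 3, 2 and 1 of the markers of these types, where 2.49% of all tested genes were. Summed on the linear scale, the megakaryocyte markers came to 902 in input, 1793 in IgG and 3222 and 3497 in the IP. The neutrophil and myeloid markers came to 669, 1695, 2586 and 2572, the macrophage markers to 210, 294, 764 and 823, the hepatocyte markers to 104, 205, 499 and 588, and the progenitor markers to 312, 482, 611 and 646. Of the macrophage markers, Mrc1 lay below the level needed for testing. The part of these cells in the results below was not tested.

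Of the kinases of the D-type cyclins, Cdk6 read 7.55 on the input array, 7.49 on the IgG array, and 9.62 and 9.45 on the IP arrays. Both IP values were far above both controls, which as deposited were within 0.06 of each other. Relative to IgG, Cdk6 rose by 2.05 (SE 0.11, 4.13-fold, limma adjusted p = 0.0346), a call that was lost with eBayes trend and robust (adjusted p = 0.0587). Over the limma alternatives the adjusted p ran from 0.0192 to 0.0587, and in the common-spread test, described below, it was 3.19e-72. After quantile normalization again the difference from IgG was 1.36, that from input was 2.18, and IgG stood 0.82 above input. Against input the difference was 1.99 (SE 0.11, 3.96-fold) and missed the limma threshold (adjusted p = 0.0574). Over the limma alternatives that adjusted p ran from 0.0382 to 0.0917, and in the common-spread test it was 2.24e-67. Among all tested genes Cdk6 lay, as deposited, at percentile 95.8 of the differences from IgG and at percentile 99.2 of those from input. Cdk6, which partners D-type cyclins in blood cell progenitors in particular, was the only member at least 2-fold above both controls. Over all tested genes 2.49% were. The summed megakaryocyte, neutrophil and myeloid, macrophage, hepatocyte and progenitor markers were also higher on both IP arrays than on either control array. In bulk RNA, a share of cells of a type and the RNA per cell cannot be told apart. Here neither can be told from RNA that came down with Cpeb4.

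Cdk4, the other kinase of the D-type cyclins, read 9.61 in input, 8.38 in IgG, and 9.60 and 9.62 in the IP. The IP values lay on either side of the input value and above IgG. Relative to IgG, Cdk4 rose by 1.23 (SE 0.08, 2.35-fold, limma adjusted p = 0.00891), and its difference from input was -0.01 (SE 0.08, adjusted p = 0.871). After quantile normalization again the difference from IgG was 0.61, within 2-fold. The difference of Cdk4 from IgG went with a low value on the IgG array, which was 1.24 below input. Cdk6 exceeded Cdk4 in its difference from input by 2.09 in replicate 1 and 1.90 in replicate 2, and in its difference from IgG by 0.91 and 0.72. These shifts were not tested.

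Cdk2, the kinase of the E-type cyclins, read 8.88 in input, 7.58 in IgG, and 7.86 and 7.91 in the IP. Both IP values lay between the controls and nearer to IgG. Cdk2 fell by 1.00 against input (SE 0.12, limma adjusted p = 0.0391). Its replicate differences of -1.03 and -0.97 lay just past and just short of 2-fold, so it was not counted by size. Against IgG it differed by 0.30 (SE 0.12, adjusted p = 0.0743), and after quantile normalization of the arrays again by -0.43, in the opposite direction.

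**Figure D2:**
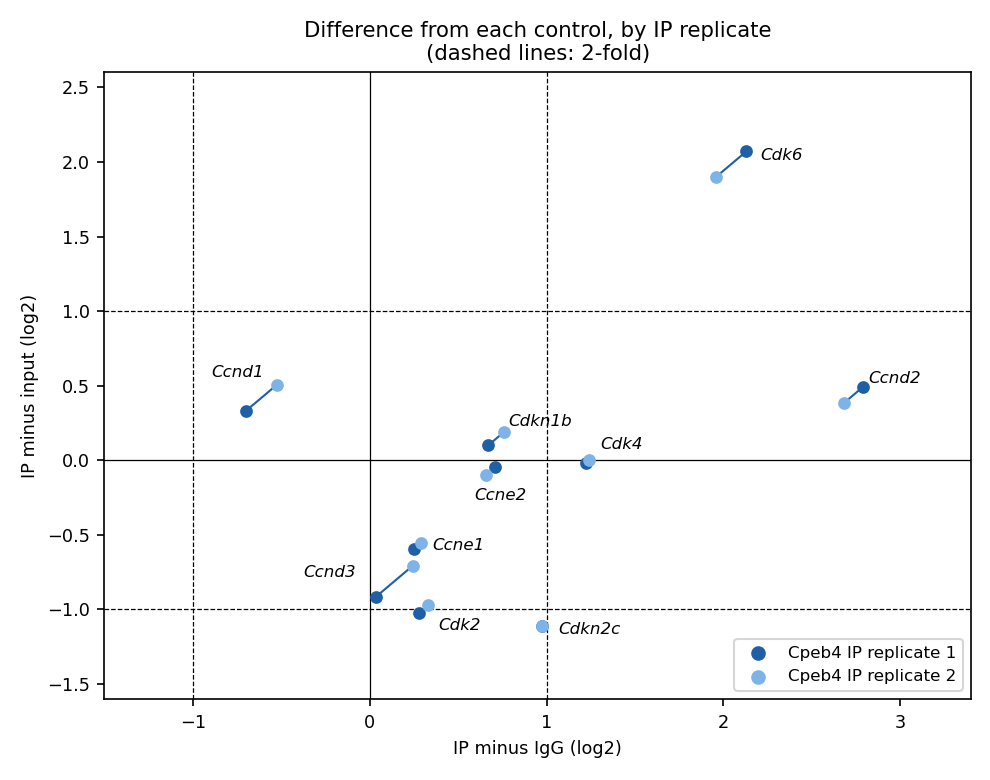
IP minus IgG (horizontal axis) against IP minus input (vertical axis), both on the log2 scale, for each gene; dark and light points are IP replicates 1 and 2, joined by a line. Both axes share the IP value, so the 2 points of a gene lie along the diagonal by construction. Cdk6 lies beyond 2-fold on both axes, and Cdkn2c beyond 2-fold below input.

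The D-type cyclins showed a different pattern each. Ccnd2, which answers to growth factor signals in blood progenitors, read 8.49 in input, 6.19 in IgG, and 8.98 and 8.87 in the IP. Both IP values were above input and well above IgG. Relative to IgG, Ccnd2 rose by 2.74 (SE 0.12, 6.66-fold, limma adjusted p = 0.0177), the largest difference from IgG among the 10, at percentile 98.9 of all tested genes. Over input it stood 0.44 higher (SE 0.12, 1.35-fold), which did not pass (adjusted p = 0.149). IgG lay 2.30 below input for this gene, at percentile 3.02 of all tested genes, so most of the distance to IgG was also present between the controls.

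Ccnd3, the D-type cyclin tied to erythroid divisions, read 9.36 in input, 8.41 in IgG, and 8.45 and 8.65 in the IP. The IP values were below input and slightly above IgG. Its difference from input was -0.81 (SE 0.11, limma adjusted p = 0.153) and from IgG 0.14 (SE 0.11, adjusted p = 0.564), and neither passed. After quantile normalization again the difference from IgG was -0.50. The IP replicates differed by 0.21, the widest gap among the 10 genes. Ccnd2 exceeded Ccnd3 in its difference from input by 1.40 and 1.09 in the 2 replicates, which was not tested.

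Ccnd1, the D-type cyclin of many epithelial and connective tissue cells, read 4.68 in input, 5.71 in IgG, and 5.01 and 5.18 in the IP. The medians over all probe sets were 4.13, 4.49, 4.15 and 4.17 on these arrays, with IgG the highest. Ccnd1 was the single member with its highest value on the IgG array, 2.04-fold above input (7.93% of all tested genes were at least 2-fold higher in IgG), and the IP values lay between the controls. It differed by -0.61 from IgG (SE 0.23, limma adjusted p = 0.118) and by 0.42 from input (SE 0.23, adjusted p = 0.247), and passed against neither.

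The E-type cyclins both lay between the controls in the IP. Ccne1 read 9.08 in input, 8.23 in IgG, and 8.48 and 8.52 in the IP. It fell by 0.58 against input (SE 0.11, limma adjusted p = 0.0469). With no filter, or with eBayes trend and robust, that call was lost, as it was for Cdk2. Its difference of 0.27 from IgG did not pass (SE 0.11, adjusted p = 0.0591) and became -0.40 after quantile normalization again.

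Ccne2 read 9.76 in input, 9.0 in IgG, and 9.71 and 9.66 in the IP. Its IP values were thus close to input and above IgG. Relative to IgG, Ccne2 rose by 0.68 (SE 0.08, 1.61-fold, limma adjusted p = 0.0316), and its difference from input was -0.07 (SE 0.08, adjusted p = 0.407). The call against IgG was lost after quantile normalization again, where the difference was 0.17, and with eBayes trend and robust; over the alternatives the limma and common-spread adjusted p ran from 1.99e-16 to 0.117. Ccne2 exceeded Ccne1 in the difference from input by 0.55 and 0.46, and in that from IgG by 0.46 and 0.37. These gaps were not tested.

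Of the inhibitors, Cdkn1b stayed near input in the IP and Cdkn2c fell below it. Cdkn1b, which encodes the Kip1 protein, read 8.93 in input, 8.36 in IgG, and 9.03 and 9.12 in the IP. Both IP values were above both controls, but by little over input. Cdkn1b differed by 0.71 from IgG (SE 0.11, 1.64-fold) and by 0.14 from input (SE 0.11), and passed against neither (limma adjusted p = 0.0511 and 0.357). After quantile normalization again the difference from IgG was 0.08.

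Cdkn2c, an Ink4 inhibitor that binds Cdk4 and Cdk6, read 8.43 in input, 6.35 in IgG and 7.32 on both IP arrays. The IP lay midway, below input and above IgG. Cdkn2c fell by 1.11 against input (SE 0.13, 2.16-fold lower, limma adjusted p = 0.0164) and rose by 0.97 over IgG (SE 0.13, 1.96-fold, limma adjusted p = 0.00629). After quantile normalization again these differences were -0.93 and 0.33, so Cdkn2c was then within 2-fold of input. Its IP values were equal on both arrays, as they were for 21.8% of tested genes, so the spread that limma saw was 0. The controls differed by 2.08 for this gene, with IgG the lower. It was the single member at least 2-fold below input in both replicates, where 5.18% of all tested genes were. Cdkn1b exceeded Cdkn2c in the difference from input by 1.21 and 1.30 in the replicates and fell short of it in that from IgG by 0.30 and 0.21, which was not tested.

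Over the 10 genes, 5 rose against IgG by the limma test (Ccnd2, Ccne2, Cdk4, Cdk6 and Cdkn2c), where 29.2% of all tested genes did. None fell, where 17.2% of all genes did, and at an unadjusted p under 0.05 the limma count below IgG was also 0. After quantile normalization again 3 fell against IgG (Ccnd1, Ccne1 and Cdk2), and the share of all genes in that setting was not computed. By size, 3 were at least 2-fold above IgG (Ccnd2, Cdk4 and Cdk6), where 18.6% of all genes were, and 0 were 2-fold below, where 6.24% were. Against input 3 fell (Ccne1, Cdk2 and Cdkn2c), where 13.3% of all genes did. None rose by limma against input, where 9.39% of all genes did; at an unadjusted p under 0.05 Cdk6 alone was higher. By size, 1 gene (Cdk6) was at least 2-fold above input, where 4.04% of all genes were. No member passed limma above both controls, where 4.96% of all genes did (at an unadjusted p under 0.05 Cdk6 did, and in the common-spread test Ccnd2 and Cdk6), none passed below both, where 2.11% did, and none was 2-fold below both, where 0.503% were. In both IP replicates, 3 of the 10 (Ccnd2, Cdk6 and Cdkn1b) read higher than both control arrays, as did 20.5% of all tested genes, and none read lower than both, where 11.9% did.

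A test with 1 common IP spread for genes of like level and a normal distribution, called the common-spread test, found 8 members above IgG and 1 (Ccnd1) below it, where 39% and 22.3% of all genes were called. Against input it found 2 above (Ccnd2 and Cdk6) and 4 below (Ccnd3, Ccne1, Cdk2 and Cdkn2c), where 14.7% and 22.3% of all genes were called.

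The differences from IgG varied with the level of the genes. The members' median difference from IgG was 0.70, where that of all tested genes was 0.08. The 9 members other than Ccnd1 had means over the 4 arrays between 7.35 and 9.53. The 2542 tested genes in that range had a median difference of 0.81 from IgG, against 0.71 for the 9 members, and in 38.9% of them both replicates exceeded IgG 2-fold or more. In the same range 5.63% of genes were 2-fold above input and 4.45% above both controls. After quantile normalization again the median from IgG was 0.12 for the genes of that range and 0.17 for the 9 members. Over the 10 genes the median difference from input was -0.04, where that of all tested genes was -0.01.

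**Figure D3:**
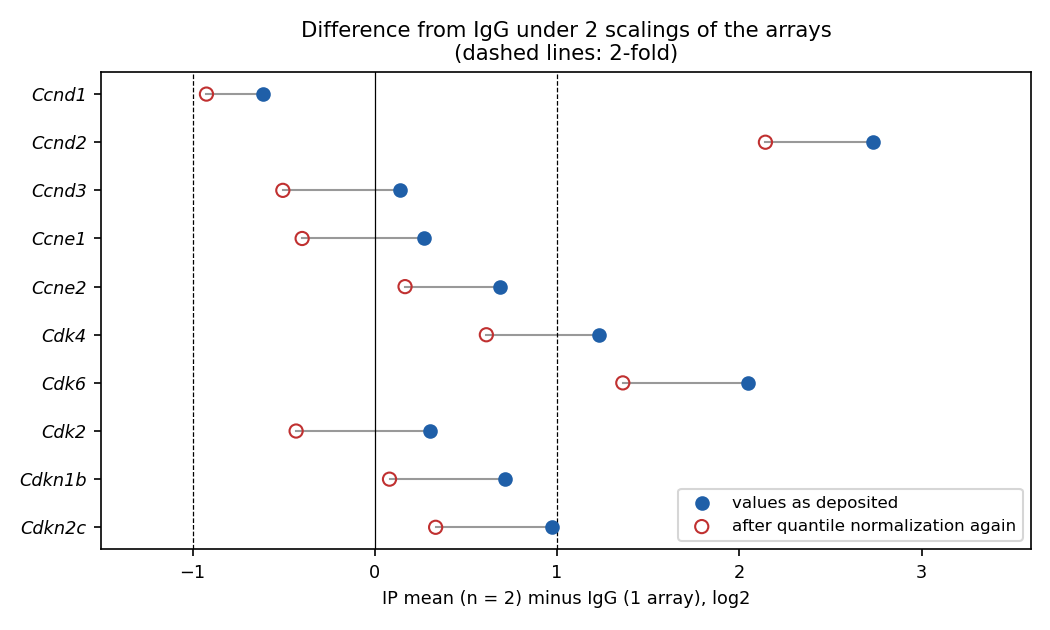
IP mean (2 arrays) minus the IgG array on the log2 scale (horizontal axis) for each gene, with the values as deposited (filled) and after quantile normalization of the 4 arrays again (open). All 10 differences moved to the left; Ccnd2 (2.14) and Cdk6 (1.36) stayed beyond 2-fold, Cdk4 went to 0.61, and Ccnd3, Ccne1 and Cdk2 went below 0.

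The controls themselves differed for most of these genes. IgG read lower than input for 9 of the 10, and at least 2-fold lower for 4 (Ccnd2, Cdk2, Cdk4 and Cdkn2c), where 23.9% of all tested genes and 47.3% of those in the level range were. The median of IgG minus input was -0.90 over the 10 genes and -0.15 over all tested genes, and -0.15 and -0.03 after quantile normalization again. Cdk6 was the exception among well-expressed members, with IgG 0.06 below input as deposited and 0.82 above it after quantile normalization again.

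By the 3 differences between the groups (IP minus IgG, IP minus input and IgG minus input), the closest pairs were Ccnd3 with Ccne1 and Ccne2 with Cdkn1b, each at a Euclidean distance of 0.29 on the log2 scale. Cdk2 lay nearest to Ccnd3, at 0.43, and Cdk4 nearest to Ccne2, at 0.73. Cdk6, Ccnd1 and Ccnd2 were the most isolated, with nearest distances of 2.33, 2.10 and 1.89. These distances are a description over 4 arrays in which the differences share arrays.

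Beside the 10 members, 38 other genes of G1 and S phase entry were read by role, and all 38 were tested. Against IgG 18 rose and 5 fell, where 29.2% and 17.2% of all tested genes did. Against input 0 rose and 11 fell, where 9.39% and 13.3% of all tested genes did. Among the 11, E2f2, E2f7, Tfdp2, Skp1, Fbxw7 and Lin9 had equal values on both IP arrays, so the spread that limma saw was 0. Of these, Tfdp2 (-0.09) and Fbxw7 (-0.46) did not pass below input in the common-spread test (adjusted p = 0.682 and 0.0564). That test had 15 of the 38 below input, where 22.3% of all tested genes were. At an unadjusted p under 0.05 in limma 1 was higher than input, and by the common-spread test 3 were. None was 2-fold above both controls, where 2.49% of all tested genes were. Their medians were 0.40 from IgG and -0.18 from input.

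The pocket proteins, which the D-type cyclin kinases phosphorylate, all 3 rose against IgG, with differences from 0.49 to 1.12, and stood 0.09 to 0.22 from input with none past the limma test. IgG minus input was -0.26 for Rb1 and -0.98 for both Rbl1 and Rbl2. After quantile normalization again the differences from IgG were 0.36, 0.44 and 0.69 for Rb1, Rbl1 and Rbl2. Of 10 E2F and DP factors 5 rose and 2 fell against IgG, and 4 fell against input. Among the rises, E2f4, named here after its values were seen, differed by 0.14 and did not pass the common-spread test (adjusted p = 0.137). Tfdp2, with a rise of 0.44, had equal values on both IP arrays. Of the falls against input, E2f2, E2f7 and Tfdp2 had equal IP values. The falls against IgG were small, -0.10 for E2f2 and -0.05 for E2f7, both named here after their values were seen. Each gene had equal values on both IP arrays, so the spread that limma saw was 0. In the common-spread test neither passed against IgG (adjusted p = 0.278 and 0.757). E2f3, an activating E2F, was the highest of the list over input, 0.84 higher with an adjusted p = 0.222 in limma, and 1.74 above IgG (adjusted p = 0.0741). Tfdp1, a dimer partner of E2F factors, stood 0.26 over input (limma adjusted p = 0.538). Of the other Cip/Kip and Ink4 inhibitors, 2 and 3 genes, none passed limma against either control. In the common-spread test Cdkn1a (-0.89) and Cdkn2d (-0.49) passed below input (adjusted p = 1.89e-26 and 0.00708). Cdkn2a and Cdkn2b passed below IgG in that test (adjusted p = 7.24e-08 and 0.0022), and Cdkn1c passed against neither control. For Cdkn1a the limma adjusted p against input was 0.0525. Cdkn2a, an Ink4 inhibitor, read -1.22 from IgG (limma adjusted p = 0.0591) and -0.17 from input.

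Of the Cdk-activating kinase, which phosphorylates the cyclin-bound kinases, Ccnh was 5.78-fold up on IgG, a rise of 2.53 (limma adjusted p = 0.0316), and stood 0.31 over input (adjusted p = 0.359), while its partners Cdk7 and Mnat1 passed against neither. Cdc37, a chaperone partner that brings Cdk4 to heat shock proteins, was 6.01-fold up on IgG, a rise of 2.59 (limma adjusted p = 0.0213), and differed by -0.11 from input. Both rises went with a low value on the IgG array. IgG minus input was -2.23 for Ccnh and -2.70 for Cdc37, at percentiles 3.45 and 1.33 of all tested genes. Sertad1, which binds Cdk4, fell against both controls, by 0.53 and 1.27 (limma adjusted p = 0.0486 and 0.0356). Ccna1, an A-type cyclin, fell by 0.98 against IgG (limma adjusted p = 0.0221), with values of 3.95 in input, 4.90 in IgG, and 3.90 and 3.95 in the IP.

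Of 5 genes of the MuvB complex and its partner Mybl2, which control cell cycle genes together with pocket proteins, 3 rose against IgG and 2 fell against input. Lin9 did both, with a rise of 1.27 over IgG and a fall of 1.06 against input (limma adjusted p = 0.00629 and 0.0164). Its IP values were equal on both arrays, so the spread that limma saw was 0. Lin52 was the lowest of the list against both controls, at -2.19 and -1.59, at least 2-fold below each in both replicates. It passed in neither (limma adjusted p = 0.137 and 0.265). Of 7 parts of the ubiquitin ligases that act on cyclins and Cdkn1b, 3 rose and 1 fell against IgG, and 3 fell against input.

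**Figure D4:**
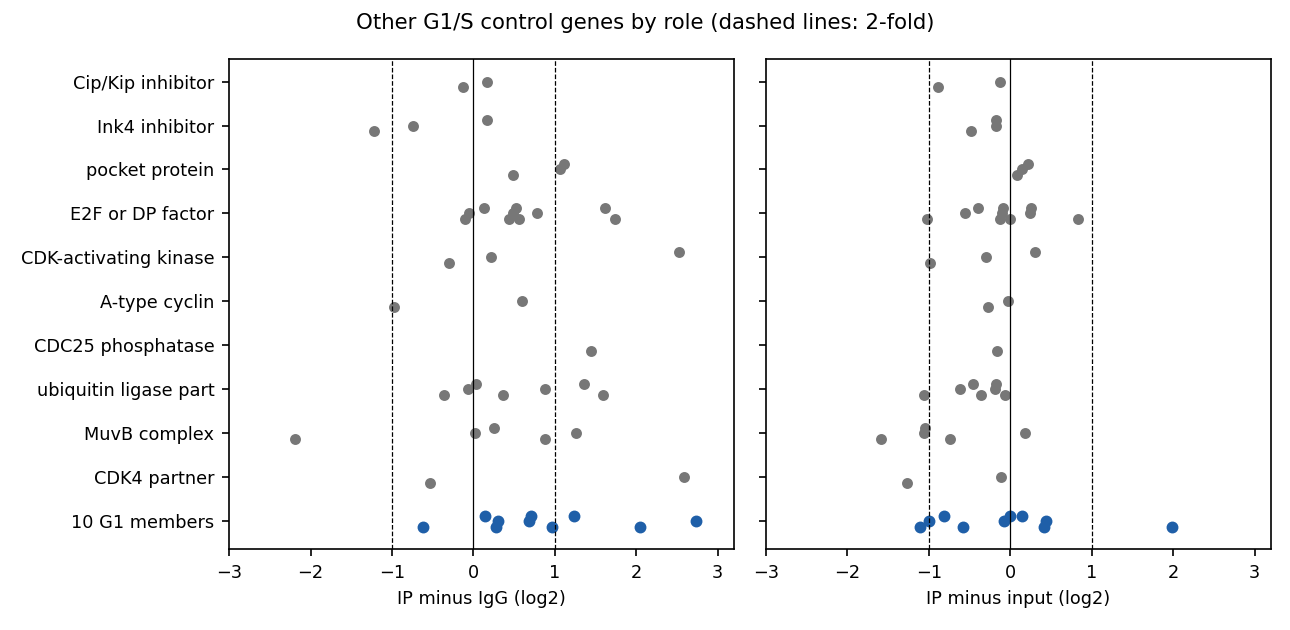
Differences from IgG (left) and from input (right) on the log2 scale for the 38 other G1/S control genes by role (grey) and the 10 members (blue); each point is the IP mean of 2 arrays minus 1 control array, and dashed lines mark 2-fold. Against input none of the grey points lies beyond 2-fold upward, and Cdk6, at 1.99, is the blue point that does.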

How the data were processed

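The authors deposited log2 expression values for 25206 probe sets. The submitters' processing notes name RMA and affy; versions, probe definition and filters are not given in the sources used here. Each probe set stands for 1 Entrez gene, and 23185 had a symbol in the platform annotation. A gene was tested if it reached the 40th percentile of mean level (13911 genes). limma 3.58.1 (R 4.3.3) was fitted to all of these with a coefficient for each of 3 groups, leaving 1 residual degree of freedom, with Benjamini-Hochberg adjustment; the code was tested on simulated data. Only the 2 IP arrays supply a spread, which the single controls are taken to share, and the number of arrays limits the precision. Tied IP values (within 1e-09, 3032 tested genes) gave limma a very small prior SD (0.00621). The common-spread test took 1 IP SD per twentieth of level (0.0663 to 0.201). IgG and input were compared by size only. Members, lists and tests were chosen with earlier results of these data known. Of the other G1/S genes, the 3 highest and 3 lowest against each control were named, with any 2-fold from both in 1 direction. Other filters, a second quantile normalization, eBayes with trend and robust, other thresholds and leaving out arrays were tried as alternatives. Transcript sequences were not used here.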

Additional observations from a re-analysis of the deposited data

How the results depend on the processing

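Each control was 1 array and array signal over background was not used here, so the single control arrays limit every difference. No paired analysis was possible because the controls share fewer than 2 replicate numbers with the IP. Of 120 values for single genes under settings with a test, 93 kept their direction and side of the threshold, 15 newly passed, 7 no longer passed and 5 reversed. Without an IP replicate there was no test, and of 40 values 1 changed sign, Cdk4 against input, which went from -0.0055 to 0.0050 without replicate 1. The 5 reversals came with quantile normalization again, and their cause was not tested: against IgG Ccnd3 became -0.50, Ccne1 -0.40 and Cdk2 -0.43, and against input Ccne2 became 0.043 and Cdk4 0.10. That normalization also gave the members medians of 0.12 from IgG, 0.073 from input and -0.15 for IgG minus input. With it 3 members passed below IgG, 1 passed above input, 1 passed above both and 0 were 2-fold below input. The shares of all tested genes under it were not computed.

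Members past limma above IgG, 5 as deposited, were 3 with trend and robust, 8 in the common-spread test and 8 at an adjusted p below 0.1, and the common-spread test had 1 below. Above input the count of 0 became 1 with the 60th percentile filter, 2 in the common-spread test and 1 at 0.1, and above both controls it became 1, 2 and 1 in the same settings. The count of 3 below input was 1 with no filter and 1 with trend and robust, where Ccne1 and Cdk2 missed the threshold. At 1.5-fold 6 members were above IgG and 3 below input. At 4-fold 1 was above IgG, 0 above input, 0 below input and 0 above both. Shares of all tested genes were not computed for the other filters, fold thresholds or adjusted p cutoff. Nor were they computed for trend and robust or for leaving out arrays, so these counts of members have no share to be set against. Without IP replicate 1 or 2 in turn 1 to 2 members were 2-fold below input, Cdk2 joining without replicate 2. Without a control or IP array, 1 to 3 were 2-fold above the remaining controls and 0 to 1 below; leaving out controls was added after the data were seen, and the 3 came without input (Ccnd2, Cdk4 and Cdk6) and the 1 below without IgG (Cdkn2c).

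Of the 38 other genes, quantile normalization again gave 5 in place of 10 at least 2-fold above IgG, 4 in place of 2 below it, 2 in place of 5 below input, a median of 0.064 from IgG, 11 past limma above IgG, 10 below IgG and 6 below input. As deposited, 18.6% of all tested genes were at least 2-fold above IgG, 6.24% below it and 5.18% below input. Shares of all tested genes after that normalization, and under the other filters and fold thresholds given next, were not computed. The 60th percentile filter gave a median of 0.49 from IgG and 3 past limma below it. At 4-fold 2 were above IgG, 0 below it and 0 below input; at 1.5-fold 1 was above input and 9 below. The common-spread test had 3 above input, where 14.7% of all tested genes were. Without an IP replicate the median from input was -0.23 to -0.19.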
